A study of Mus musculus with 23 samples.

Results

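The genes described here are 10 members of the tight junction: the claudins Cldn1, Cldn2, Cldn3, Cldn4, Cldn6, Cldn7, Cldn8 and Cldn18, occludin (Ocln) and the scaffold Tjp1, also called ZO-1. They were chosen by name, as 10 of 35523 genes measured, and a member's level is the sum over its transcripts. Claudins are small membrane proteins that span the membrane and meet their partners on the neighbouring cell, where they seal the space between epithelial cells or, in some cases, form pores for ions. Occludin sits in the same strands, and the ZO proteins tie both to the actin cytoskeleton. Pancreatic ductal tumours are known for CLDN18 and CLDN4, and the mix of claudins in an epithelium sets how leaky its layer is.

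RNA-seq libraries came from mouse pancreatic tumour organoids and pancreatic stellate cells (PSCs, the fibroblast-like cells that build tumour stroma), grown together in Matrigel in media labelled reduced/control for 3.5 days and then sorted apart. The organoid libraries numbered 7 from cultures with Egfr KO PSCs and 4 from cultures with Rosa PSCs, whose genotype is labelled WT. The PSC libraries numbered 8 from KO and 4 from Rosa PSCs. The deletion is a property of the PSCs, so the organoid libraries compare the same tumour lines beside different stroma. There were 4 co-cultures, T69A with PSC4, T12-LOH with PSC4, T6-LOH with PSC5 and T6-LOH with PSC4, each with 1 Rosa library per fraction. By their labels, KO lines A3 and B4 belong to PSC4, and C5 and D4 to PSC5. The labels do not say how the lines were derived, what LOH refers to, whether a KO line is 1 clone, or whether libraries came from separate cultures, so p-values measure only the spread between these libraries. The organoid library of T69A with KO line A3 is not analysed here. Libraries are named by the number that opens their title.

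Library depth lay between 21823084 and 34828131 estimated counts. Egfr, the targeted gene, had a median of 24.4 TPM (a share of all transcripts in a library, corrected for transcript length) in KO PSCs, with a range of 14.9 to 80.6 TPM, and 72.2, 73.4, 91.3 and 110.6 TPM in Rosa PSCs. It was lower than in the Rosa library of the same co-culture in 8 of 8 KO libraries, but the highest KO library, of line D4, lay above 2 of the Rosa libraries, and the fitted difference did not pass in edgeR's quasi-likelihood test (log2 -1.15, Benjamini-Hochberg adjusted p = 0.225). The fractions matched their labels: the 12 epithelial markers summed to 14869 to 20615 TPM in organoids and 26.2 to 214.0 TPM in PSCs, and the 14 fibroblast and stellate markers to 1.77 to 14.0 TPM in organoids and 5686 to 11137 TPM in PSCs. Organoids of KO cultures held less of the fibroblast markers (1.77 to 5.52 TPM, median 3.08) than organoids of Rosa cultures (2.90 to 14.0 TPM, median 7.31). Because these are bulk samples, fewer cells of a type and less RNA per cell cannot be told apart.

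Cldn18 and Tjp1 each have transcripts that differ in coding sequence, and both genes vary below by line or by fraction, so the parts that differ are shown first. The Cldn18 gene starts at either of 2 first exons. Cldn18-202 uses the upstream one and Cldn18-201 the downstream one. In human tissue the corresponding forms are known as the stomach and the lung type, and the stomach type is the target of antibodies against gastric tumours. Their first coding exons, at chr9:99716996-99717215 and chr9:99709729-99709948 on the minus strand of GRCm38 (GENCODE M21 transcripts), are 220 bases each and identical at 153 of them (69.5%). Capitals mark the bases that differ.
Cldn18-202 first coding exon: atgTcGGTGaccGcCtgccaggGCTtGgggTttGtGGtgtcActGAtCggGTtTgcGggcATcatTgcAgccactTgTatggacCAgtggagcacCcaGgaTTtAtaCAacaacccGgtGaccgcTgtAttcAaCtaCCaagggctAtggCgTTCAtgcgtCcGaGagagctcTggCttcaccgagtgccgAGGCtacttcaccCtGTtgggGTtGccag
Cldn18-201 first coding exon: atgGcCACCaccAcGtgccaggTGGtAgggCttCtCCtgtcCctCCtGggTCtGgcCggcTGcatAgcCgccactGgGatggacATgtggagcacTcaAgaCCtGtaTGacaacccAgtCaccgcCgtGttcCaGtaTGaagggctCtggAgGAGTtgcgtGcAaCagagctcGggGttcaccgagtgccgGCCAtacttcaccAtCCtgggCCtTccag
Tjp1-202 holds a 240-base coding exon, at chr7:65314093-65314332 on the minus strand, that Tjp1-201 lacks. It is known as the alpha exon of ZO-1, and the form that holds it is the usual one of epithelial cells.
Tjp1 alpha exon: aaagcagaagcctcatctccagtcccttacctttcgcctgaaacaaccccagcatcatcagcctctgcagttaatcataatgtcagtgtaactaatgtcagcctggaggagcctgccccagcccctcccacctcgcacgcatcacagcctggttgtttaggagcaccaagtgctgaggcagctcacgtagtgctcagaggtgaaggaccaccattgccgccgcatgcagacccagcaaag
The RefSeq promoter of the upstream Cldn18 start, at chr9:99717218-99717517 on the minus strand of GRCm38.p6, runs over 300 bases. It is shown because the transcript annotated from that start held the larger share of Cldn18 TPM in each organoid library. By estimated counts Cldn18-201 held more, as in library 7 (5732 against 3509) and library 4 (10648 against 8552). Neither measure separates the use of the 2 starts. Capitals mark matches on either strand to AGATAA, a motif of GATA factors.
Cldn18 upstream promoter: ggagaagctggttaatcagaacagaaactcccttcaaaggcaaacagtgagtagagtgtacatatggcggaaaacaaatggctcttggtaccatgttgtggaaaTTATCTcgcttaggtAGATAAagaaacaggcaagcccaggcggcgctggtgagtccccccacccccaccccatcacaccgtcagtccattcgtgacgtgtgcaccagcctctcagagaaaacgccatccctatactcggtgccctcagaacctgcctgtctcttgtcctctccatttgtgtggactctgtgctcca
The motif matched 2 times in that window and in none of the other 11 member promoters, while 11.2% of all 32851 promoters hold it. Promoter entries were found for 9 of the 10 members. The AP-1 motif TGACTCA, searched the same way, matched 2 times in the Cldn4 promoter and in no other member's, and 5.20% of all promoters hold it. TATAAA matched once, in the Cldn2 promoter, against 13.6% of all promoters. A match is a string of letters and not a measured binding site.

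In organoids, Cldn7 was the claudin whose level varied least between libraries relative to its mean. It is a claudin found along the whole flank of epithelial cells, where it binds Epcam. Its level lay between 411.7 and 476.3 TPM in all 11 libraries, with a mean of 452.3 ± 19.8 TPM (SD, n = 11). Cldn3, a sealing claudin, had a mean of 360.5 ± 146.0 TPM and Cldn4, a close relative of it, 354.0 ± 104.5 TPM. Cldn6, best known from embryonic epithelium, averaged 280.6 ± 70.7 TPM. Cldn18 averaged 195.1 ± 154.6 TPM and Cldn2, which forms a pore for cations and water, 189.6 ± 83.2 TPM. Cldn8, known from the distal kidney tubule and colon, averaged 15.6 ± 16.2 TPM, and Cldn1, a sealing claudin of skin and many epithelia, 0.23 ± 0.20 TPM. Tjp1 averaged 123.6 ± 11.3 TPM and Ocln 69.4 ± 6.36 TPM. In the order of the means, Tjp1 and Ocln, and Ocln and Cldn8, differed by more than either SD over libraries, and the other neighbours did not.

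**Figure D1:**
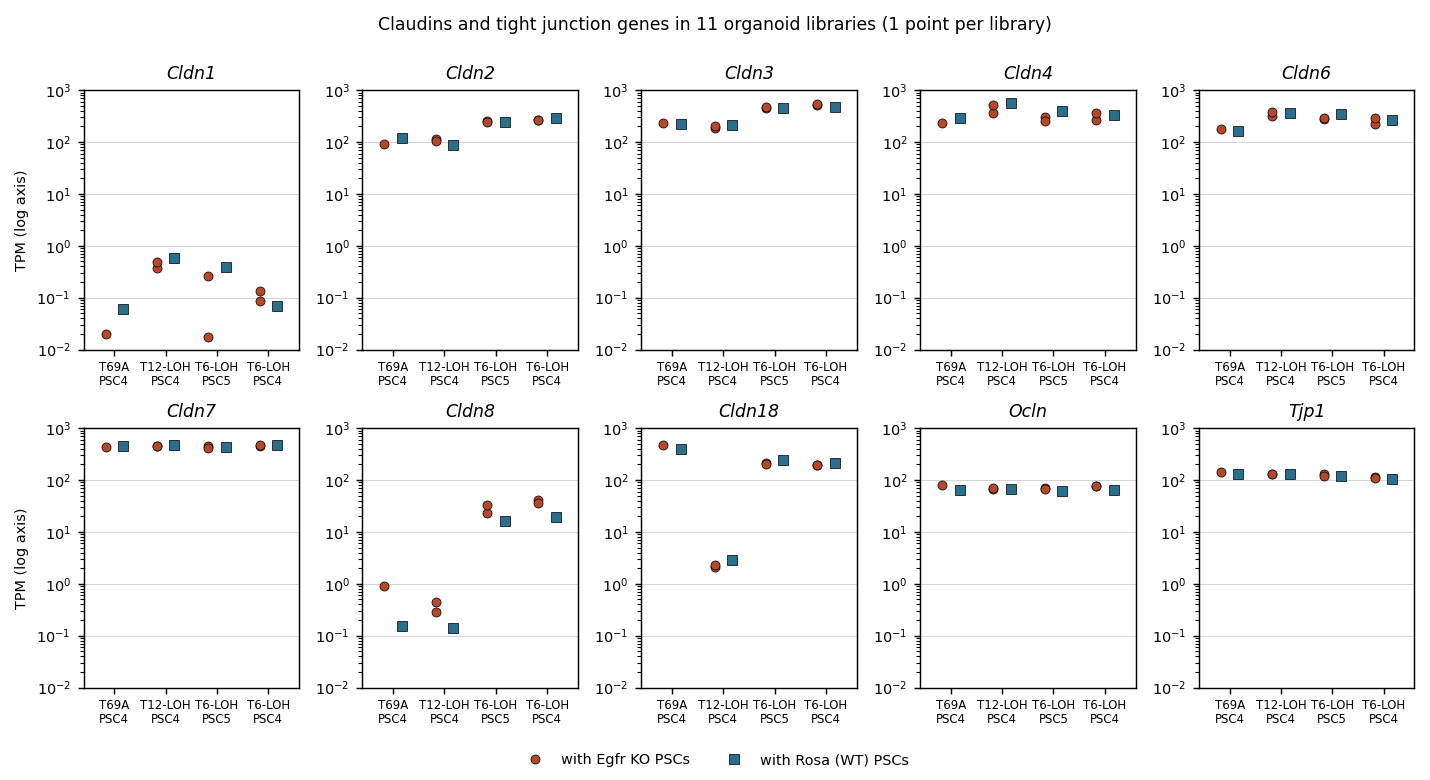
TPM of the 10 genes in the 11 organoid libraries on log axes, 1 panel per gene and 1 point per library, with organoids of KO cultures (circles) left of organoids of Rosa cultures (squares) in each co-culture. Cldn7 lies between 411.7 and 476.3 TPM throughout, while Cldn18 is at 2.07 to 2.92 TPM in T12-LOH and Cldn8 under 1 TPM in T12-LOH and T69A.

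The organoid lines differed mainly in Cldn18 and Cldn8. T69A held 482.6 and 400.2 TPM of Cldn18, T12-LOH 2.07, 2.26 and 2.92 TPM, and T6-LOH 191.4 to 241.5 TPM (median 207.8, 6 libraries). No library of one line overlapped another line. Cldn8 was 0.91 and 0.15 TPM in T69A, 0.29, 0.45 and 0.14 TPM in T12-LOH, and 16.2 to 42.0 TPM (median 28.4) in T6-LOH. T69A and T12-LOH overlapped in Cldn8, and T6-LOH stood above both. Tested with edgeR among cultures with PSC4, 8 of 10 members differed between T12-LOH and T6-LOH, 4 higher and 4 lower, where 63.1% of 13939 genes did, 31.4% higher and 31.7% lower. Between T69A and T6-LOH 7 of 10 differed, 3 higher and 4 lower, where 55.3% of genes did, 27.6% higher and 27.7% lower. Between T69A and T12-LOH 7 of 10 differed, 4 higher and 3 lower, where 56.6% of genes did, 27.8% higher and 28.8% lower. The members' shares are read against these backgrounds, and the description rests on the sizes of the differences.

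Cldn18 was 85.7-fold lower in T12-LOH than in T6-LOH (log2 -6.42, SE 0.10, edgeR adjusted p = 6.51e-13) and 2.30-fold higher in T69A than in T6-LOH (log2 1.20, SE 0.08, adjusted p = 1.61e-07). T69A exceeded T12-LOH by 7.62 on the log2 scale (SE 0.11, adjusted p = 1.55e-13). Cldn8 was lower in T12-LOH than in T6-LOH (log2 -6.84, SE 0.26, adjusted p = 9.47e-09), on 5 to 14 counts per T12-LOH library. In T69A it was lower than in T6-LOH as well (log2 -5.68, SE 0.29, adjusted p = 1.71e-07), on 31 and 5 counts. Without library 4 that difference was -6.91, and without library 2 it was -5.30. T69A and T12-LOH did not pass for Cldn8 (log2 1.15, SE 0.48, adjusted p = 0.0632). The difference was -0.07 without library 4, and it passed without library 2 (1.54, adjusted p = 0.0118) and without library 15 (1.16, adjusted p = 0.0218).

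Cldn2 and Cldn3 were both high in T6-LOH and low in the other lines. Cldn2 had 91.9 and 121.1 TPM in T69A, 116.4, 103.7 and 87.7 TPM in T12-LOH, and 244.8 to 291.3 TPM in T6-LOH. Cldn3 had 228.1 and 220.5 TPM in T69A, 184.1, 207.5 and 211.4 TPM in T12-LOH, and 461.4 to 537.2 TPM in T6-LOH. For both genes the T6-LOH libraries lay above all others. In T12-LOH relative to T6-LOH, Cldn2 fell (log2 -1.45, SE 0.13, edgeR adjusted p = 1.14e-05) and so did Cldn3 (log2 -1.38, SE 0.07, adjusted p = 6.33e-09). The differences of T69A from T6-LOH were -1.24 for Cldn2 (SE 0.15, adjusted p = 0.000128) and -1.05 for Cldn3 (SE 0.08, adjusted p = 4.79e-07). Cldn3 was higher in T69A than in T12-LOH (log2 0.33, SE 0.08, adjusted p = 0.00288), and Cldn2 did not pass there (log2 0.21, SE 0.15, adjusted p = 0.268).

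Between T12-LOH and T6-LOH, Cldn4 and Cldn6 ran the other way, with their highest levels in T12-LOH. Between T69A and T6-LOH their differences had the same sign as those of Cldn2 and Cldn3, though Cldn4 did not pass (log2 -0.23, edgeR adjusted p = 0.387). Cldn4 had 233.3 and 295.7 TPM in T69A, 365.3, 520.1 and 554.6 TPM in T12-LOH, and 249.7 to 403.3 TPM (median 317.2) in T6-LOH. Of the T12-LOH libraries, 1 lay within the T6-LOH range. Cldn6 had 177.9 and 165.9 TPM in T69A, 322.3, 380.9 and 362.7 TPM in T12-LOH, and 223.8 to 344.1 TPM (median 281.2) in T6-LOH. For Cldn6 both T69A libraries lay below all others, and 1 T12-LOH library lay within the T6-LOH range. In T12-LOH relative to T6-LOH, Cldn6 rose (log2 0.44, SE 0.11, edgeR adjusted p = 0.00389) and Cldn4 rose (log2 0.52, SE 0.18, adjusted p = 0.0383). The Cldn4 call was lost when any 1 of 8 libraries (2, 4, 6, 7, 10, 12, 14 or 15) was left out, with log2 differences of 0.36 to 0.53, and without the count filter (0.49, adjusted p = 0.108). Against T12-LOH, T69A was lower in Cldn4 (log2 -0.75, SE 0.21, adjusted p = 0.0171) and in Cldn6 (log2 -0.90, SE 0.12, adjusted p = 0.000108). Without library 2, 4 or 10 the Cldn4 difference no longer passed (-0.80, -0.70 and -0.75). Cldn6 was lower in T69A than in T6-LOH too (log2 -0.46, SE 0.12, adjusted p = 0.00782), and it did not pass without library 2 (-0.40).

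Tjp1 and Ocln differed by 0.44 or less on the log2 scale. Tjp1 was higher in T69A than in T6-LOH (log2 0.44, SE 0.06, edgeR adjusted p = 2.96e-05) and in T12-LOH than in T6-LOH (log2 0.18, SE 0.05, adjusted p = 0.00786; without the count filter 0.14, adjusted p = 0.0603), with 141.7 and 132.0 TPM in T69A, 128.2, 132.0 and 128.4 TPM in T12-LOH and 103.1 to 129.5 TPM in T6-LOH. The T12-LOH libraries overlapped the upper end of T6-LOH. Ocln was higher in T69A than in T12-LOH (log2 0.33, SE 0.07, adjusted p = 0.00173), and this did not pass without library 4 (0.24). Against T6-LOH the Ocln difference of T69A was 0.18 (SE 0.07, adjusted p = 0.0494), which did not pass without library 4 (0.08), 6 (0.13), 7 (0.20), 8 (0.20), 12 (0.17), 14 (0.18), 15 (0.18) or 16 (0.18). It did not pass with RLE size factors (adjusted p = 0.0586), by DESeq2 (0.0589) or without the count filter (0.162) either. Cldn7 passed in none of the 3 line comparisons by edgeR or by DESeq2, with log2 differences of -0.01 to 0.04. Cldn1 was higher in T12-LOH than in T6-LOH (log2 2.21, adjusted p = 0.00912), on 23, 23 and 31 counts per T12-LOH library and 1 to 23 counts per T6-LOH library. Without library 6 that difference was 1.71 and did not pass. In T69A, on 1 and 3 counts, Cldn1 was lower than in T12-LOH (log2 -3.49, adjusted p = 0.00553). Without library 4 that difference was -3.12 and did not pass (adjusted p = 0.0571), and without library 2 it was -4.15.

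Summed over the 8 claudins, T69A held 1649 and 1648 TPM, T12-LOH 1606 ± 136 TPM (SD, n = 3) and T6-LOH 2036 ± 101 TPM (SD, n = 6). The make-up of that sum differed. Cldn18 was 29.3% and 24.3% of it in T69A, 0.135% to 0.172% in T12-LOH and 8.90% to 11.2% in T6-LOH. Cldn4 made up 14.2% and 17.9% in T69A, 25.2% to 32.7% in T12-LOH and 13.1% to 18.8% in T6-LOH. Cldn3 was 13.8% and 13.4% in T69A, 12.4% to 12.7% in T12-LOH and 21.5% to 26.2% in T6-LOH.

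**Figure D2:**
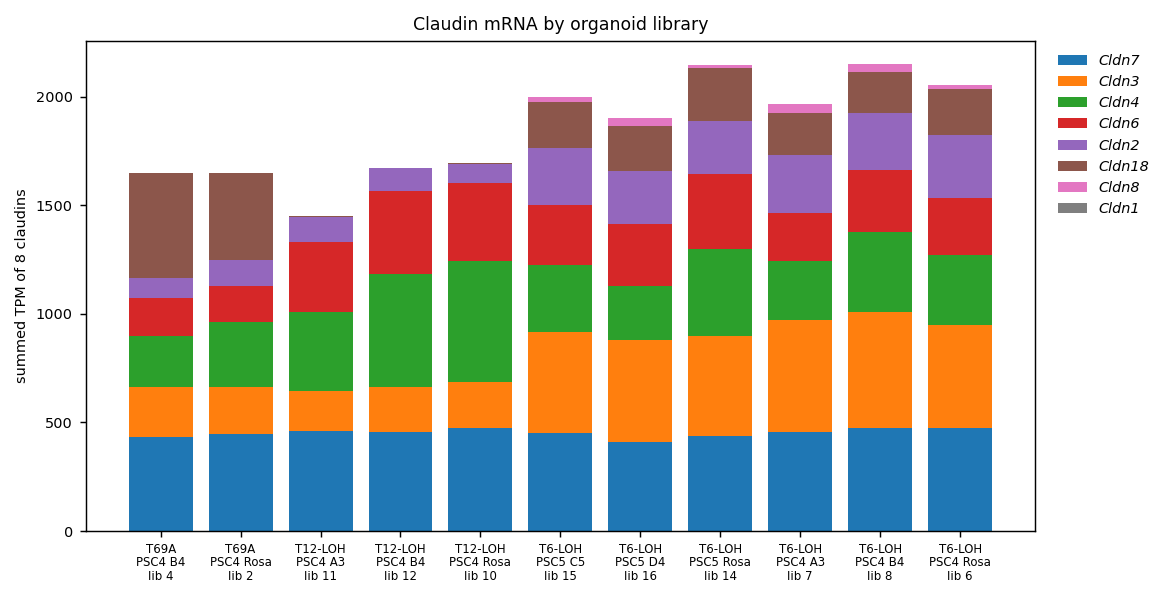
Summed TPM of 8 claudins in each organoid library, stacked by gene, with KO lines left of the Rosa line in each co-culture. The Cldn18 block is largest in T69A (482.6 and 400.2 TPM) and can hardly be seen in T12-LOH (2.07 to 2.92 TPM).

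T6-LOH was grown with both PSC parents. Between T6-LOH organoids with PSC5 and with PSC4, 0 of 10 members differed by edgeR, where 0.545% of 13939 genes did, and DESeq2 called 461 genes and 0 members. The members with the smallest p were Tjp1 (log2 0.15), Cldn8 (-0.41), Cldn7 (-0.12), Cldn3 (-0.16) and Ocln (-0.15). Their edgeR adjusted p were 0.179, 0.245, 0.238, 0.280 and 0.287.

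Cldn8 was the member that differed most between organoids of KO and of Rosa cultures. With T69A it had 0.91 TPM beside KO line B4 and 0.15 TPM beside Rosa PSCs. With T12-LOH it had 0.29 and 0.45 TPM beside KO lines and 0.14 TPM beside Rosa PSCs. With T6-LOH and PSC5 it had 23.5 and 33.2 TPM beside KO lines and 16.2 TPM beside Rosa PSCs, and with T6-LOH and PSC4 42.0 and 35.5 TPM beside KO lines and 19.5 TPM beside Rosa PSCs. In each of the 4 co-cultures every KO library lay above its Rosa library. Over all co-cultures Cldn8 rose 1.97-fold (log2 0.98, SE 0.17, edgeR adjusted p = 0.0103, higher in 7 of 7 libraries). The values in T12-LOH and T69A rest on 12, 14 and 31 counts beside KO lines and 5 and 5 counts beside Rosa PSCs. Without the T69A co-culture the log2 difference was 0.92 (adjusted p = 0.0138). Without Rosa library 14 it was 1.10 and did not pass (adjusted p = 0.0512), and no other left-out library ended the call. It did not pass without the co-culture term either.

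Ocln also passed, by a small margin. With T69A it had 81.6 TPM beside the KO line and 63.0 TPM beside Rosa PSCs. With T12-LOH it had 66.0 and 69.7 TPM beside KO lines and 67.6 TPM beside Rosa PSCs. With T6-LOH and PSC5 it had 68.7 and 67.4 TPM beside KO lines and 62.1 TPM beside Rosa PSCs, and with T6-LOH and PSC4 75.8 and 77.7 TPM beside KO lines and 63.7 TPM beside Rosa PSCs. Library 11, of T12-LOH with line A3, was the exception and lay below its Rosa library. The fitted rise was 0.18 on the log2 scale (SE 0.05, edgeR adjusted p = 0.0437, higher in 6 of 7 libraries). It did not pass without library 2, 4, 6, 7, 8, 12, 14, 15 or 16 (log2 0.15 to 0.19, adjusted p 0.0528 to 0.119), nor without the T69A co-culture (log2 0.15, adjusted p = 0.125), with KO counts summed per co-culture (log2 0.19, adjusted p = 0.0922) or without the co-culture term.

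These were 2 of the 10 members, where 10.3% of 13939 genes were called, 4.28% as higher and 6.05% as lower. The median log2 difference was -0.03 over the members and -0.0089 over all genes tested. The counts behind these percentages moved with single libraries: 1441 genes were called in all, against 440 without library 4, 886 without 10, 214 without 14, 844 without 11, 713 without 16, 826 without 7, 857 without 15 and 427 without 2. The organoids of KO cultures also held less of the PSC collagen transcript Col1a1 (log2 -1.45, SE 0.28, edgeR adjusted p = 0.0128), on 10 to 258 counts per organoid library. It was lower in 7 of 7 libraries by CPM (library-scaled counts, with no correction for length). By TPM, library 8 lay above its Rosa library (0.455 against 0.434). Cldn8 was at 0 to 3 counts in every PSC library and Ocln at 0 to 32.

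Cldn4 was lower in 6 of 7 organoid libraries of KO cultures and did not pass (log2 -0.31, SE 0.14, adjusted p = 0.198). Its TPM ran from 233.3 to 520.1 (median 309.9) in organoids of KO cultures and from 295.7 to 554.6 (median 363.9) in organoids of Rosa cultures. Library 8, of T6-LOH with line B4, was the one KO library above its Rosa library. When KO counts were summed per co-culture the same difference passed (log2 -0.31, adjusted p = 0.0409). Tjp1 lay above its Rosa library in 7 of 7 KO libraries by 0.004 to 0.11 in log2 CPM. By TPM, library 11 (128.2 against 128.4) and library 16 (119.3 against 121.3) lay below theirs. Tjp1 did not pass (log2 0.07, SE 0.04, edgeR adjusted p = 0.244). Cldn18 (log2 -0.07, SE 0.06), Cldn6 (-0.07, SE 0.08), Cldn7 (-0.05, SE 0.04), Cldn2 (-0.02, SE 0.10) and Cldn3 (0.01, SE 0.05) did not pass either, with adjusted p of 0.444 to 0.919. Cldn1 was too low to weigh, at 1 to 23 counts in organoids of KO cultures and 3 to 31 counts in organoids of Rosa cultures.

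**Figure D3:**
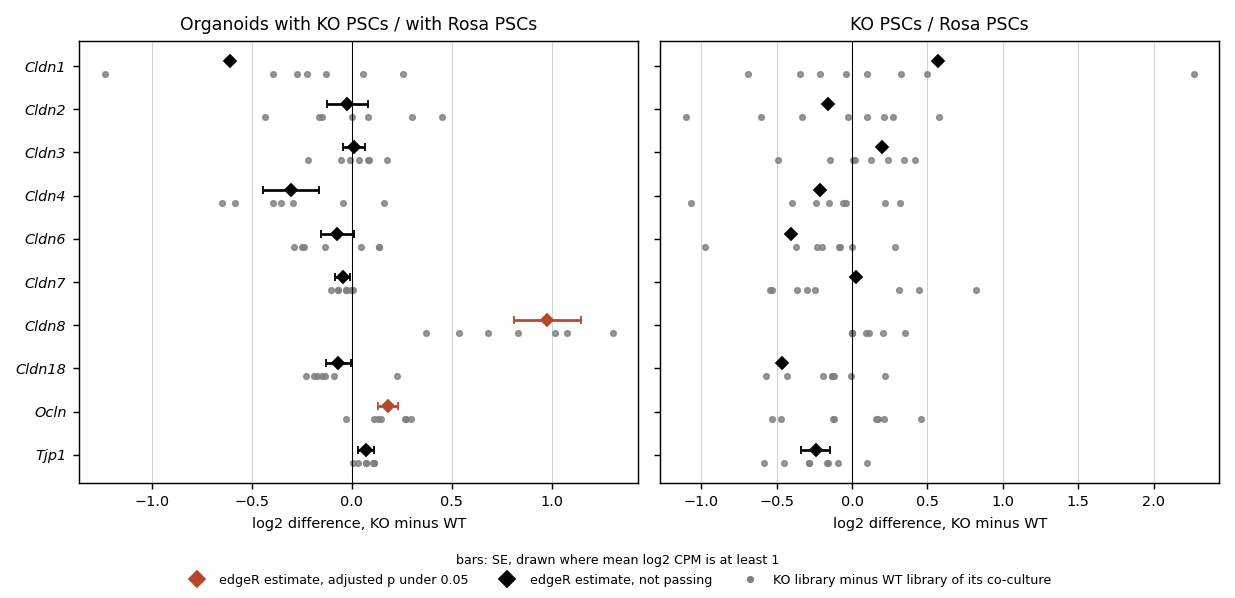
Log2 difference between KO and WT (Rosa) for the 10 genes in organoids (left) and PSCs (right). Diamonds are edgeR estimates with SE bars where the mean log2 CPM is at least 1, and grey points are single KO libraries minus the Rosa library of their co-culture. In organoids Cldn8 stands at 0.98 with all 7 points above 0, and Ocln at 0.18 with 6 of 7 above 0.

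Whether the KO effect differed between the 4 co-cultures was tested as an interaction in edgeR. It passed for 0 of 10 members, where 0.115% of genes passed. Cldn2 had the smallest p (0.000424, adjusted p = 0.0939). Its differences in log2 CPM from the Rosa library were 0.45 and 0.30 in T12-LOH, -0.44 in T69A, 0.08 and 0.00 in T6-LOH with PSC5 and -0.15 and -0.17 in T6-LOH with PSC4. Cldn2 passed without the count filter and by DESeq2. No Rosa library had a replicate within its co-culture, and neither did the KO library with T69A. The error of the interaction therefore holds only the spread between KO lines in the other co-cultures. It cannot tell a KO effect that differs by co-culture from a deviating Rosa library, so no conclusion is drawn for Cldn2. Cldn18 was above its Rosa library in T69A (0.23) and below it in the other 6 KO libraries (-0.23 to -0.09), with an unadjusted p of 0.0125 and an adjusted p of 0.359.

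The other genes of the junction were described from lists chosen by function. Of 10 other tight junction membrane proteins tested, Jam2, an adhesion molecule, fell in organoids of KO cultures (log2 -0.53, SE 0.11, edgeR adjusted p = 0.0117) and the other 9 did not pass. Jam2 averaged 5.50 ± 1.96 TPM in organoids of KO cultures (SD, n = 7) and 7.21 ± 3.84 TPM in organoids of Rosa cultures (SD, n = 4). Of 18 scaffold and polarity genes, Ybx3, a Y-box protein that binds ZO-1, rose (log2 0.22, adjusted p = 0.0286), while Amotl1, an angiomotin relative (log2 -0.21, adjusted p = 0.0348), and Mpp5, the polarity protein Pals1 (log2 -0.18, adjusted p = 0.0494), fell. Of 14 adherens junction and desmosome genes, Nectin4 (log2 -0.44, adjusted p = 0.0259) and the plakophilin Pkp1 (log2 -0.47, adjusted p = 0.0324) fell. None of the 4 other claudins that could be tested passed by edgeR, and 0 had an unadjusted p under 0.05. Of 13 transcription factors that act on junction genes, Cdx2 rose (log2 0.49, SE 0.08, adjusted p = 0.00575) and so did Hnf4a (log2 0.28, SE 0.05, adjusted p = 0.00783). Both are factors of intestinal epithelium. Over all 13939 genes tested in this comparison, 10.3% were called, and the calls in these lists are read against that share. The alternatives were run for the 10 members only, so whether the calls of these other genes hold under them was not tested. The median log2 differences of these lists lay between -0.08 and 0.10.

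In the PSCs the epithelial members were close to absent. The 8 claudins summed to 1.69 to 12.5 TPM in PSC libraries. Relative to the mean organoid level of the same co-culture, Cldn2, Cldn3, Cldn4, Cldn6 and Cldn7 reached 0.022% to 0.80% in PSC libraries. The median of the 12 epithelial markers reached 0.0668% to 0.947%, which covers the range of these claudins apart from its lowest values. Ocln reached at most 1.31% and Cldn8 0.359%. The PSC libraries with T69A held the most, with 2.67, 4.39 and 3.59 TPM of Cldn18 in lines A3, B4 and Rosa, 0.605% to 0.994% of the T69A organoid level. PSC libraries with T12-LOH held 0, 1 and 1 count of Cldn18, which came to 0%, 1.75% and 3.8% of the low T12-LOH organoid level in lines A3, B4 and Rosa, and a count of 0 allows up to 3 counts.

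Tjp1 was the member that PSCs make in quantity, at 32.7 to 44.8 TPM in KO PSCs (median 38.0) and 38.1 to 50.3 TPM in Rosa PSCs (median 45.4). That was 26.9% to 46.0% of the organoid level. By edgeR 9 of 10 members were higher in organoids than in PSCs, where 81.9% of 15573 genes differed, 40.3% higher and 41.6% lower. The log2 difference was 1.86 for Tjp1 (SE 0.05, adjusted p = 4.80e-15) and 8.67 to 9.42 for the other 8. For Cldn8 it was 9.07, and 8.25 by DESeq2. Each difference is a mean over the 4 co-cultures. With T12-LOH and T69A, Cldn8 had 0 counts in PSCs and 5 to 31 counts in organoids. With T12-LOH, Cldn18 had 0 or 1 count in PSCs and 88 to 117 counts in organoids. For these 2 genes the mean does not stand for every co-culture. Cldn1 did not pass (log2 -0.50, adjusted p = 0.397). Its TPM was above the mean of the organoids of the same co-culture in all PSC libraries but the 3 with T12-LOH. PSC library 17, with T69A, lay below organoid library 2 (0.049 against 0.061 TPM, each on 3 counts). Cldn1 had 0.03 to 4.58 TPM (2 to 188 counts) in PSCs and 0.02 to 0.59 TPM (1 to 31 counts) in organoids. The PSC5 libraries, all with T6-LOH, held 0.57, 4.58 and 0.73 TPM of Cldn1 in lines C5, D4 and Rosa. The 9 PSC4 libraries held 0.03 to 0.69 TPM. Those of PSC4 with T6-LOH held 0.69, 0.15 and 0.40 TPM in lines A3, B4 and Rosa.

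**Figure D4:**
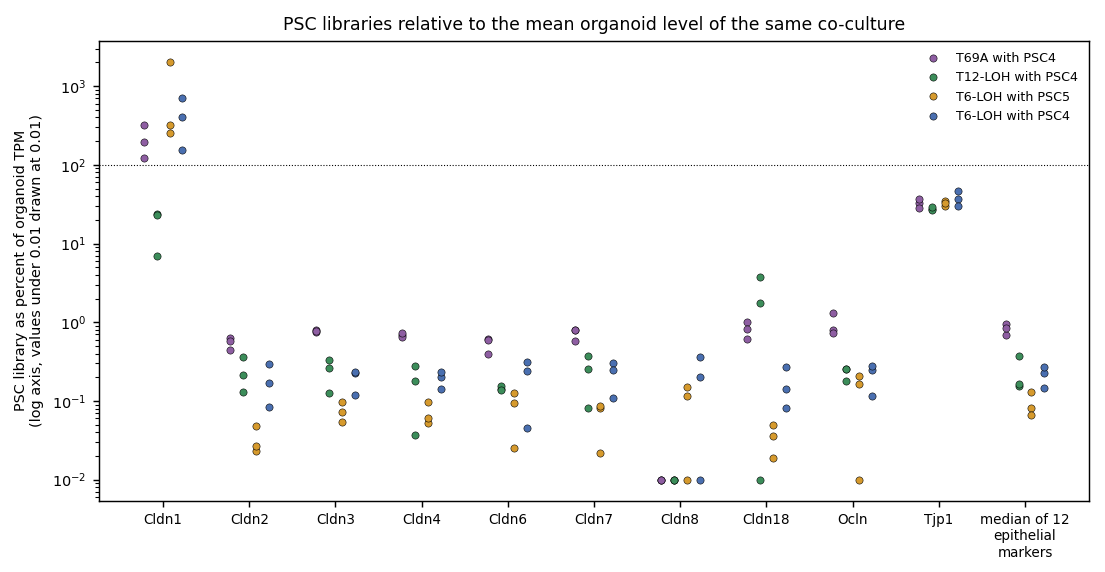
Level of each gene in each PSC library as a percent of the mean organoid TPM of the same co-culture, on a log axis with values under the lowest tick drawn on it, coloured by co-culture. Tjp1 lies at 26.9% to 46.0%, Cldn1 at 7.00% to 2048%, and the claudins 2, 3, 4, 6 and 7 at 0.80% or less, as does the median of the 12 epithelial markers in most libraries (0.0668% to 0.947%).

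Between KO and Rosa PSCs, 0 of the 8 members that could be tested passed by edgeR, where 0.0638% of 14107 genes did, 0.0213% higher and 0.0425% lower. DESeq2 called 602 genes and 0 members. Cldn8 and Ocln were below the count filter. Tjp1 had the only unadjusted p under 0.05 by edgeR (log2 -0.24, SE 0.10, adjusted p = 0.329) and lay below its Rosa library in 7 of 8 KO libraries. The other tested members were at 0 to 188 counts per library. Of the other junction genes, none of the 5 claudins, 6 membrane proteins, 19 scaffold and polarity genes, 12 adherens junction and desmosome genes and 12 transcription factors tested passed by edgeR in PSCs. The unadjusted p was under 0.05 for 0, 0, 6, 1 and 2 of them, in that order. The share of all 14107 genes under that unadjusted threshold was not counted, so these numbers are not read as a result.

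Transcript shares separated the fractions for Tjp1. Tjp1-202, which holds the alpha exon printed above, made up 70.3% and 70.0% of Tjp1 TPM in T69A organoids, 57.3% to 58.6% in T12-LOH organoids and 66.2% to 72.3% in T6-LOH organoids, against 40.9% to 47.5% in the 12 PSC libraries. Tjp1-201, which lacks it, made up 14.3% and 13.9% in T69A, 22.8% to 25.0% in T12-LOH and 10.5% to 17.0% in T6-LOH organoids, against 34.3% to 50.7% in PSCs. Tjp1-207, which was not compared for this exon, was at 11.7% to 16.4% in organoids and 8.37% to 18.0% in PSCs, where the fractions overlapped. The shares of Tjp1-202 did not overlap between organoids and PSCs, nor between T12-LOH and the other lines. These are shares that the Salmon model assigns, and they were not tested.

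For Cldn18 the lines differed in level and little in transcript share. Cldn18-202, from the upstream start, made up 64.1% and 65.7% of Cldn18 TPM in T69A, 53.5% to 64.5% in T12-LOH and 57.7% to 62.9% in T6-LOH organoids. T12-LOH overlapped both other lines, and the T69A shares lay just above those of T6-LOH. Cldn18-201 made up 31.6% and 31.2% in T69A, 29.3% to 40.7% in T12-LOH and 32.4% to 37.4% in T6-LOH organoids. In T12-LOH these shares rest on 36.8 to 52.6 estimated counts of Cldn18-202 and 51.3 to 71.1 of Cldn18-201 per library. A small difference in share cannot be weighed there. Cldn18-201 is annotated with a last exon of 3434 bases and Cldn18-202 with one of 1075 bases. Reads from the longer end can only be assigned to Cldn18-201, so these shares do not separate the use of the 2 starts. For Ocln, Ocln-201 made up 56.1% to 75.7% in organoids.

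**Figure D5:**
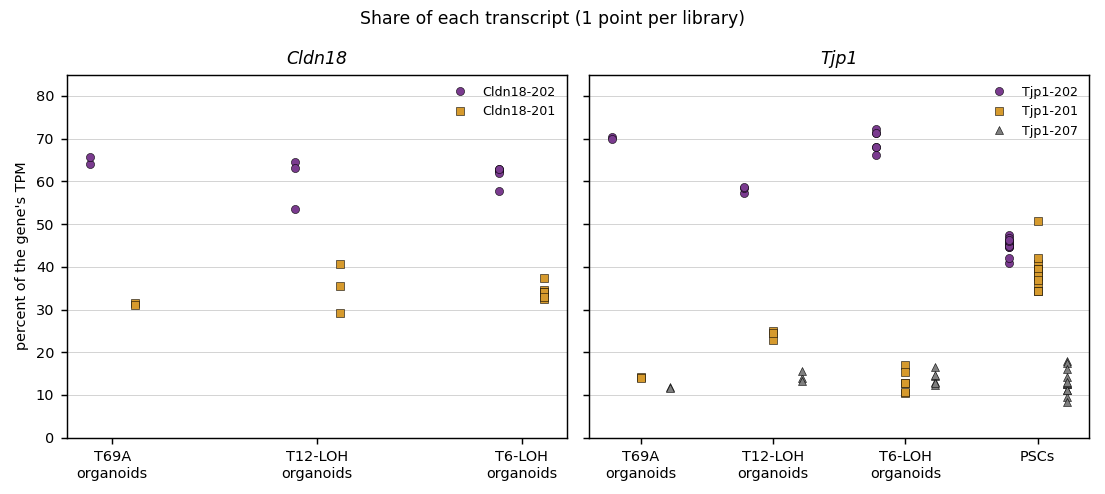
Share of each named transcript in the TPM of Cldn18 (left, organoids) and Tjp1 (right, organoids and PSCs), 1 point per library. Tjp1-202 lies at 57.3% to 72.3% in organoids and 40.9% to 47.5% in PSCs, and the 2 Cldn18 transcripts keep the same order in each organoid line.

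Likeness to other genes was taken over the 11 organoid libraries, as Pearson's r of log2 CPM among 11527 genes. It is given as a description, since the libraries share 3 lines. Cldn18 ran most like Arhgap44 (r = 0.997), Ptprh (0.997) and Egfl6 (0.995). Arhgap44 averaged 33.7 TPM in T69A, 0.0050 TPM in T12-LOH and 14.7 TPM in T6-LOH. Cldn8 ran most like Nadk2, Fam91a1 and Eny2 (0.996, 0.991 and 0.991), which all lie on chromosome 15, while Cldn8 itself lies on chromosome 16. Nadk2, the mitochondrial NAD kinase, averaged 7.67 TPM in T69A, 7.44 TPM in T12-LOH and 33.7 TPM in T6-LOH. The best match was Dazap2 for Cldn3 (0.994), Fam49b for Cldn2 (0.989), St6gal1 for Cldn6 (0.980), Vps13c for Tjp1 (0.962), Gsta1 for Ocln (0.937), Abtb2 for Cldn4 (0.936) and Rpl22l1 for Cldn7 (0.899). Dazap2 and Fam49b lie on chromosome 15 too, so that chromosome was not particular to the matches of Cldn8. The second matches, Ggt1 for Cldn3 and Tor2a for Cldn2, lie on chromosomes 10 and 2. Cldn1 was below 1 CPM and was not matched.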

How the data were processed

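RNA-seq of 11 organoid and 12 PSC libraries was quantified by the authors with Salmon 1.9.0, per the submitters' processing notes, which also name GRCm39 and mm39. The deposited tables give estimated counts and TPM per transcript, and no label or header names the annotation behind them. Of 117135 transcripts, 115973 (99.0%) were matched by identifier to GENCODE M21 (GRCm38), which was used for gene names and the printed sequences. Unmatched transcripts held 0.364% to 0.443% of counts.

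Estimated counts were summed per gene, rounded and tested in R 4.3.3 with edgeR 4.0.16 (TMM scaling, filterByExpr by group, robust quasi-likelihood test, Benjamini-Hochberg adjustment over all genes tested, threshold 0.05). The organoid and PSC fits held genotype and co-culture, and line differences were read among co-cultures with PSC4. The fraction fit compared organoids with PSCs. DESeq2 1.42.0, other scaling, no count filter, no co-culture term, summed counts and left-out libraries were tried as alternatives. The fits were also run on simulated counts, which held no differences between co-cultures other than changes set for a comparison. They are no test of the co-culture term. Deposited TPM were summed per gene for levels. No 2 libraries of a group agreed within sampling noise (lowest chi-square per degree of freedom 10.2). The KO libraries of a co-culture share 1 Rosa library. The members and gene lists were chosen with earlier results of these data known. The genes named are the 10 members, up to 5 genes per list, comparison and direction that passed with the smallest p, up to 3 genes most like each member, and check genes. SEs are left out where mean log2 CPM is below 1.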

Additional observations from a re-analysis of the deposited data

Results flagged for a closer look

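Cldn1 in the PSC library of KO line D4 (library 28, with T6-LOH) was 4.5767 TPM, on 188 counts, while the other 7 KO PSC libraries lay between 0.034 and 0.692 TPM. Its gap to the nearest library was 0.855 of the range of the group. Cldn18 in the Rosa PSC library with T69A (library 17) was 3.5876 TPM, on 176 counts, while the other 3 Rosa PSC libraries lay between 0.0803 and 0.533 TPM, a gap of 0.871 of the range. The KO PSC libraries of the same T69A co-culture held 2.67 and 4.39 TPM of Cldn18. A Dixon test was run 40 times and picked out these 2 values, and chance alone picks out about 1 in 20 groups. The part that other cells or RNA carried over from organoids play in either value was not tested.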

How the results depend on the processing

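Over the alternatives to the member values, 1067 of 1142 kept their direction and side of the threshold, 42 lost a call, 9 gained one and 24 changed sign, none of the last among called members. The genes called between KO and Rosa organoids, 1441, came to 0 without the co-culture term, 445 without T69A and 629 with KO counts summed per co-culture, and the members called, 2, to 0 without that term and 1 without T69A. Between KO and Rosa PSCs, 9 genes were called, against 23 without the count filter, 602 by DESeq2, 4 without the co-culture term, 0 without T69A and 0 with counts summed per PSC line. Between PSC5 and PSC4 cultures, 76 genes were called, against 242 without the count filter and 461 by DESeq2. The interaction called 16 genes and 0 members, against 946 and 1 without the count filter and 117 and 1 by DESeq2, the member being Cldn2. The causes of these shifts were not tested. The interaction rests on Rosa libraries without a replicate in their co-culture, so its calls are not read as a result.

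With single libraries left out, genes called ranged over 214 to 1910 and members over 0 to 2 for KO against Rosa organoids, 0 to 51 and 0 to 0 for PSCs, 8016 to 9163 and 7 to 8 for T12-LOH against T6-LOH, 5737 to 7861 and 6 to 7 for T69A against T6-LOH, 6133 to 8255 and 5 to 8 for T69A against T12-LOH, and 8 to 254 and 0 to 0 for PSC5 against PSC4. A line left with 1 T69A library is assumed to vary like the others. Differences that changed sign under some alternative were, for KO against Rosa organoids, Cldn2 (0.024 without the co-culture term, 0.085 without T69A, -0.16 to 0.089 with a library left out) and Cldn3 (-0.034 to 0.055). For KO against Rosa PSCs they were Cldn7 (-0.24 without the co-culture term, -0.29 to 0.48 with a library left out), Cldn2 (-0.47 to 0.37), Cldn1 (-0.041 to 0.92) and Cldn3 (-0.014 to 0.47). For the lines they were Cldn7 (-0.0032 for T69A against T6-LOH without the count filter, -0.021 to 0.023 for T12-LOH against T6-LOH with a library left out), and Cldn2 (-0.037 to 0.46) and Cldn8 (-0.074 to 1.54) for T69A against T12-LOH. For PSC5 against PSC4 it was Cldn4 (-0.17 to 0.13). Organoids and PSCs were also paired over the 11 cultures whose titles name the same organoid and PSC lines. With culture as the block 11612 genes and 9 members differed, against 12760 and 9, and no member's call changed. KO and Rosa libraries share no numbers, so they were blocked by co-culture. Low counts limit Cldn1 in every library (188 or fewer), Cldn8 in T12-LOH and T69A (31 or fewer) and the claudins in PSCs.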
